A study of Caenorhabditis elegans with 2 samples.

Results

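Molting in Caenorhabditis elegans is driven by a small set of transcription factors and timing regulators, and binding of the GATA factor ELT-1 at 9 of their genes is described here: nhr-25, nhr-23, grh-1, blmp-1, bed-3, myrf-1, lin-42, nekl-3 and nekl-2. These genes were chosen from a list of names, and each was taken with its gene body plus 5 kb on each side, out of 19973 protein-coding genes on the nuclear chromosomes. The windows covered 151.5 kb in all. They held 14 of the 1910 summits of the thresholded peak list, here called the IDR list after the irreproducible discovery rate, which scores how far peak ranks repeat across replicates. The data come from chromatin immunoprecipitation and sequencing (ChIP-seq) of eGFP-tagged ELT-1 in L3 larvae, in 2 biological replicates of 1 group, and without a second condition to compare it with. Both replicates came from strain OP354, genotype unc-119(tm4063) III; wgIs354, in which wgIs354 is the transgene insertion for eGFP-tagged elt-1. The animals were L3 larvae of pooled sex, of unknown age, taken whole. The promoter that drives the transgene is not given in the sources used here. Peaks from whole animals do not show which cells carried them, and read depth is unknown.

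Each larval molt replaces the cuticle that the epidermis secretes, and many epidermal genes are switched on once per molting cycle. ELT-1 specifies epidermal fate in the embryo and recognises DNA with a GATA core. The nuclear hormone receptors NHR-23 and NHR-25 are required for molting, and are related to insect DHR3 and Ftz-F1. GRH-1 (a Grainyhead factor), BLMP-1 (a zinc finger factor related to BLIMP1) and BED-3 (a BED-type zinc finger protein) regulate gene expression in the epidermis and in the cycle. MYRF-1 is a membrane-anchored factor released by cleavage, and LIN-42, related to Period, sets the timing of molts. NEKL-2 and NEKL-3 are NIMA-related kinases that act in epidermal endocytosis during molting.

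Of the 9 genes, 6 had at least 1 IDR summit in the window, namely nhr-23, nhr-25, lin-42, myrf-1, blmp-1 and nekl-3. Over all nuclear protein-coding genes the share was 18.4%. At least 2 IDR summits were found at 5 genes, all of the above but blmp-1, against 4.05% of all genes. A promoter window, from 1000 bp upstream to 200 bp downstream of any annotated protein-coding transcript start, held an IDR summit at 4 of the 9 genes (nhr-23, lin-42, myrf-1 and nekl-3), against 4.98% of all genes. Genes with more starts can have more sequence searched in this way, and nhr-23 has 6 starts and lin-42 has 5. From the strongest regions of replicate 1 alone the promoter count was 2 (nhr-23 and nekl-3), and from those of replicate 2 alone it was 4. For promoter windows in 1 replicate alone, the share of all genes was not computed. The summits numbered 0.0924 per kb of the molting gene windows and 0.0188 per kb of the nuclear genome. The genes were chosen with such results known, so these shares are a description and were not tested. All 9 genes had a region of the relaxed pooled list in the window, which 87.9% of genes had. That list can include background, since its −log10 q values go down to 0.0361.

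The signal is the authors' own value for each peak and is used here only within a list. At the 14 summits it ran from 28.6 to 87.8 with a median of 44.7, and the median over the whole nuclear IDR list was 40.5. The 14 stood between percentiles 5.18 and 89.8 of the IDR list, and 10 of them lay in its upper part, above percentile 50. By the highest signal in the window the order was nhr-23 (87.8), nhr-25 (83.0), lin-42 (61.3), nekl-3 (58.6), myrf-1 (45.6) and blmp-1 (31.7). The best ranks in replicate 1 were 133 for nhr-23 and 273 for nhr-25, and in replicate 2 they were 295 and 236, so these neighbours changed places between replicates. The gene myrf-1 was just below nhr-25 in replicate 1, at rank 296, and just below nekl-3 in replicate 2, at rank 727. In both replicates lin-42 (ranks 497 and 457) stood above nekl-3 (717 and 603), and blmp-1 was the last of the 6 (1714 and 1239). These are the best ranks of any region in each window and need not belong to the same summit in both replicates. At myrf-1 they came from different summits, and at blmp-1 the IDR summit itself ranked 1843 in replicate 2. The windows of bed-3, grh-1 and nekl-2 had highest pooled signals of 17.04, 11.1 and 5.87, which exceeded those of 67.1%, 49.4% and 18.1% of all genes. For nhr-23 the corresponding share was 98.1%.

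**Figure D1:**
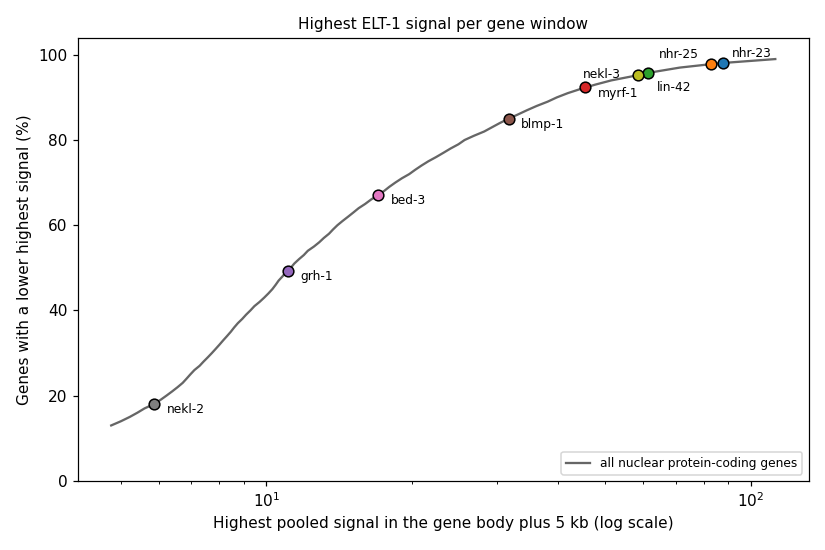
Highest pooled signal in the gene body plus 5 kb (x axis, log scale) against the percentage of nuclear protein-coding genes with a lower value (y axis), with the grey line for all genes and a point for each molting regulator. From blmp-1 upward the 6 genes with IDR summits lie at 85.01% or higher, and nekl-2 lies at 18.1%.

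**Figure D2:**
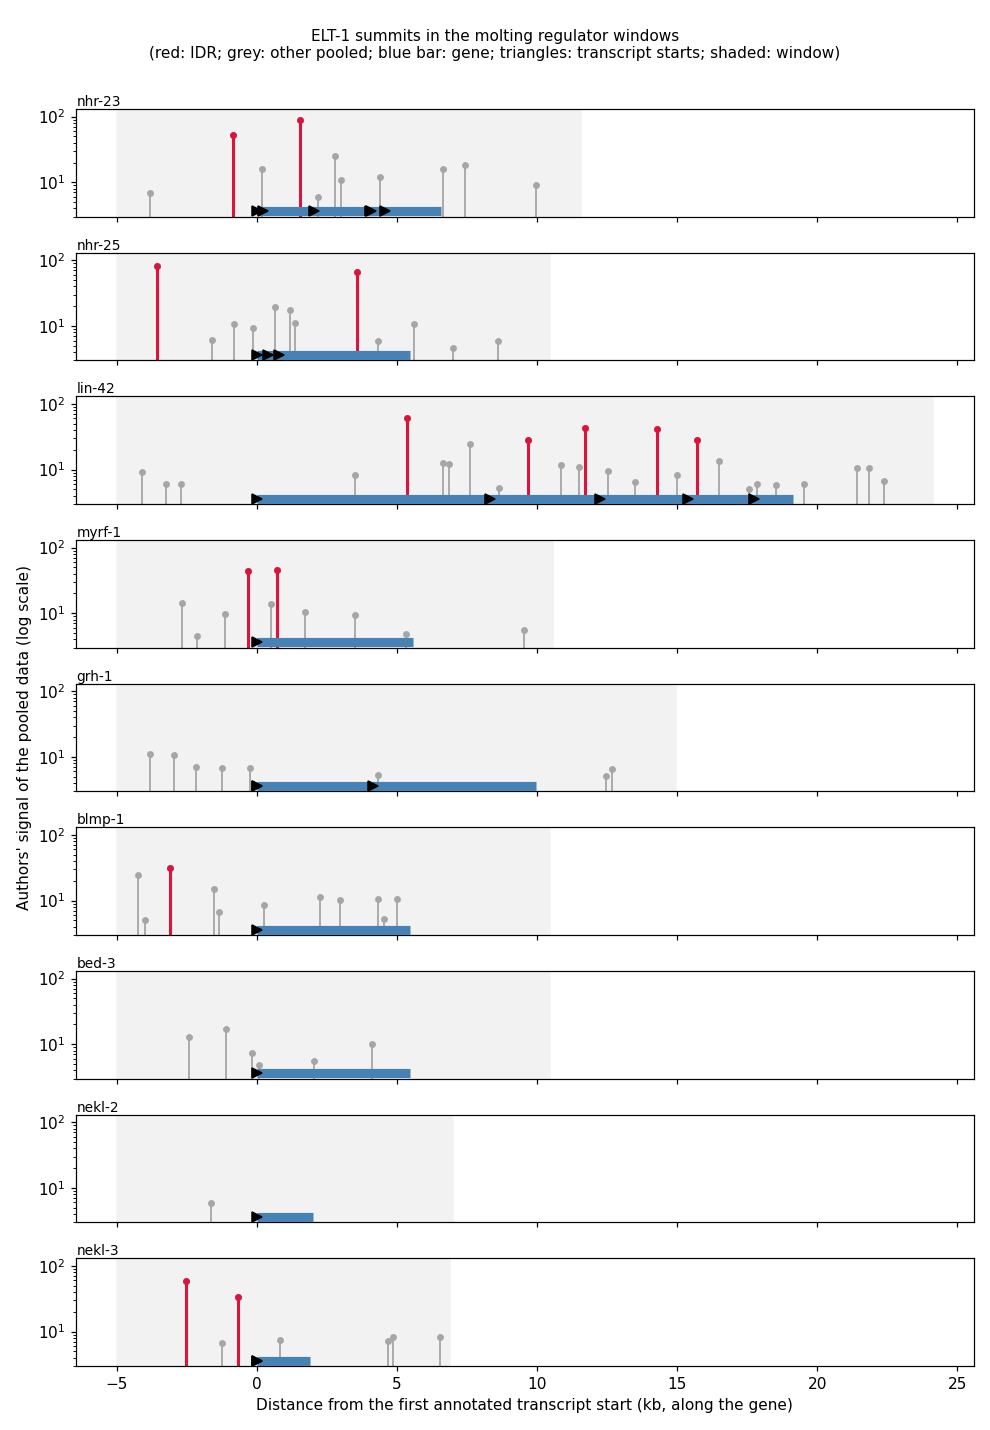
Signal of each summit in the pooled data (y axis, log scale) by distance from the first annotated transcript start (x axis, kb along the gene), for 9 genes. Red marks IDR summits and grey the other pooled summits; the 5 IDR summits of lin-42 lie inside the gene, and grh-1, bed-3 and nekl-2 have grey summits only.

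The nuclear receptor gene nhr-25 (WBGene00003623, X, 13008493 to 13013964, plus strand, 3 transcript starts) had 2 IDR summits, both outside promoter windows. The stronger, at 13004862 to 13004966 on ce11, lay in intergenic DNA 3568 bp upstream of the first start, with a signal of 83.0 (percentile 88.3). Its ranks were 273 in replicate 1 and 236 in replicate 2. The weaker, at 13012026 to 13012133, lay in an intron 2807 bp downstream of the third start, with a signal of 66.4 (percentile 81.5) and ranks of 369 and 399 in replicates 1 and 2. The regions were 105 and 108 bp wide, narrower than the list's median of 340 bp. Each had 1 GATA site, searched here on both strands as WGATAR, that is GATA preceded by A or T and followed by a purine, within 50 bp of the summit. The site was AGATAA at the upstream summit, with its centre 0.5 bp from the summit, and AGATAG at the intronic one, 10.5 bp away. Sequences of 101 bp around the summits are shown for the places where a site and a summit can be compared, on the plus strand of ce11 (RefSeq sequence of WBcel235), and capitals mark WGATAR in either orientation. They are chrX:13004875-13004975 and chrX:13012023-13012123.
nhr-25 upstream: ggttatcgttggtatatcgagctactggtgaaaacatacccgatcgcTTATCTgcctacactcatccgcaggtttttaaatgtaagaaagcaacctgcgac
nhr-25 intron: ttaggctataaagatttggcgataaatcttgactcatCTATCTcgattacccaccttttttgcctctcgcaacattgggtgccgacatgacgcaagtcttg

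Both nhr-25 summits were among the 1910 strongest regions of each replicate, as many as there are IDR peaks. A further region of replicate 1 reached that set, 5592 bp downstream of the first start, past the end of the gene, at rank 1801. Replicate 2 had no summit within 100 bp of it, and in the pooled list it had rank 8296. Pooled summits in the nhr-25 promoter windows stayed below the IDR list. The nearest to the first start was 149 bp upstream with a signal of 9.20, and neither replicate had a summit within 100 bp of it. A stronger one lay 123 bp upstream of the third start, with summits 43 bp away in replicate 1 and 0 bp away in replicate 2.

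The receptor gene nhr-23 (WBGene00003622, chromosome I, 7214745 to 7221299, plus strand) has 6 annotated transcript starts, spread over 4573 bp, and its 2 IDR summits lay beside different ones. The strongest summit of all 14, at 7216207 to 7216374 and of signal 87.8 (percentile 89.8), was intronic, 1540 bp downstream of the first start and 499 bp upstream of the third, that of transcript C01H6.5a.1. It ranked 133 in replicate 1 and 295 in replicate 2, and no WGATAR lay within 250 bp of it, although 78.7% of all nuclear IDR summits had one in that range. The other, at 7213712 to 7214051 with a signal of 51.6 (percentile 68.8), lay in intergenic DNA 863 bp upstream of the first start, that of C01H6.5c.1. Its replicate ranks were 657 and 467, and it had AGATAA with its centre 9.5 bp from the summit. The more downstream starts, from 4041 bp on, had a pooled summit nearby with a signal of 12.2 (rank 6517) and no IDR summit. Neither replicate had a summit within 100 bp of that pooled summit. A region 2787 bp downstream of the first start ranked 1561 in replicate 1 and, within 100 bp, 4540 in replicate 2, and its pooled rank of 2202 placed it below the IDR list.

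Of the other transcription factor genes, blmp-1 had 1 IDR summit and grh-1 and bed-3 had none. The blmp-1 summit (WBGene00003847, chromosome I, peak 10406016 to 10406355) lay 3116 bp upstream of the start, outside protein-coding genes but in an exon of the non-coding gene F25D7.8. Its signal of 31.7 was at percentile 20.8, it ranked 1714 and 1843 in replicates 1 and 2, and its nearest WGATAR was 121.5 bp away. A region 4241 bp upstream of blmp-1 ranked 1239 in replicate 2 and had no match within 100 bp in replicate 1; its pooled rank was 2304. At bed-3 (WBGene00009133, IV, 9916524 to 9921967) the highest pooled summit, 1101 bp upstream (signal 17.04), had rank 3879 in the pooled list, 14492 in replicate 1 and 4669 in replicate 2. At grh-1 (WBGene00001707, chromosome I, 1258201 to 1268155, 3 starts) the highest, 3811 bp upstream (signal 11.1), fell within an intron of Y48G8AR.8 and had ranks of 7710 in the pooled list and 10137 and 10650 in the replicates. The nearest IDR summit to a grh-1 start was 5779 bp upstream, beyond the window and nearer to Y48G8AR.8 (signal 31.0), and that of bed-3 was 42523 bp away.

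The replicates placed the 14 summits within 59 bp of the pooled summit where both had them. All 14 had a replicate 2 summit within 100 bp, at a median distance of 15.5 bp and at most 54 bp, and 12 had a replicate 1 summit, at a median of 7.5 bp and at most 59 bp. Among the 1910 strongest regions were 13 of the 14 in replicate 2, 9 in replicate 1 and 8 in both. The 8 are 57.1%, and 55.4% of all nuclear IDR summits were among the strongest of both. Within the whole relaxed lists of both replicates, 85.7% of the 14 and 92.2% of all nuclear IDR summits were matched. By gene, 6 of the 9 had one of the strongest regions of replicate 1 in the window (17.9% of all genes) and 6 had one of replicate 2 (18.3% of all genes).

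**Figure D3:**
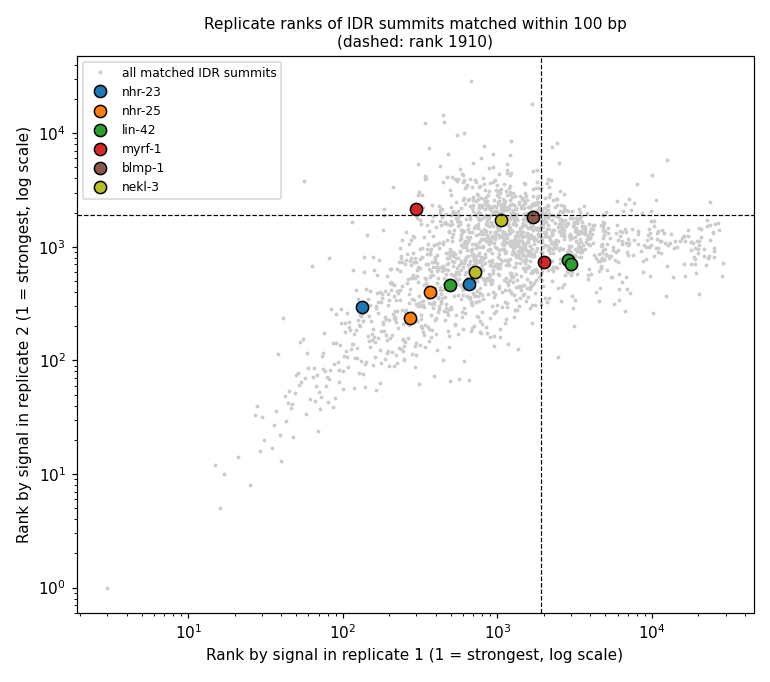
Rank by signal in replicate 1 (x axis) and in replicate 2 (y axis), both on log scales with 1 as the strongest, for nuclear IDR summits matched within 100 bp in both replicates (grey) and for 12 of the 14 summits at molting regulators (coloured by gene). Dashed lines mark rank 1910; the summits of nhr-23 and nhr-25 lie inside both lines, and those of myrf-1 fall outside one line each.

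The myrf-1 gene (WBGene00004134, II, 10496987 to 10502541, minus strand, 1 transcript start) had 2 IDR summits on either side of its start, with like signals in the pooled data and opposite order in the replicates. The intronic summit, at 10501659 to 10501998, lay 712 bp downstream of the start with a signal of 45.6. It ranked 296 in replicate 1 and 2128 in replicate 2. The promoter summit, at 10502693 to 10503032, lay 322 bp upstream with a signal of 43.7, in an exon of the non-coding gene F59B10.7. It ranked 2008 in replicate 1 and 727 in replicate 2. Each was thus among the 1910 strongest of 1 replicate and not of the other. The intronic summit had AGATAG 12.5 bp from its centre, and 48.5% of the bases around it were G or C. The promoter summit had no WGATAR within 250 bp and 68.3% G or C, more than 99.7% of nuclear IDR summits. Both sequences, chrII:10501779-10501879 and chrII:10502813-10502913 (plus strand), are shown because they share a longer word: capitals mark WGATAR, and also GAGACGCAG, in either orientation.
myrf-1 intron: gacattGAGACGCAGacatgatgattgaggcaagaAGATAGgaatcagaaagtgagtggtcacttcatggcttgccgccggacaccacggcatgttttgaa
myrf-1 promoter: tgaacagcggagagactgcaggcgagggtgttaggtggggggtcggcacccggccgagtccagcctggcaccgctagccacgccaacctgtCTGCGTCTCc

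The period-related gene lin-42 (WBGene00018572, II, 1233236 to 1252359, minus strand) has 5 transcript starts over 17734 bp and held 5 IDR summits, all inside the gene. None lay near the first start, that of F47F6.1d.1 and F47F6.1f.1. The strongest, at 1246831 to 1247170, was in an intron 2966 bp upstream of the second start, in an exon of the non-coding gene F47F6.13, with a signal of 61.3 (percentile 78.1) and ranks of 497 and 457 in replicates 1 and 2. Another, at 1240473 to 1240812, was 542 bp upstream of the third start, that of F47F6.1e.1, and was the only one in a promoter window. It had a signal of 43.3. Further along the gene, the summit at 1237912 to 1238251 was 1113 bp upstream of the fourth start, that of F47F6.1a.1, with a signal of 42.1. The remaining 2 had signals of 28.6 each, at percentiles 5.39 and 5.18, one in an intron 1365 bp downstream of the second start and one in a 5′ UTR 305 bp downstream of the fourth. The 5 summits ranked 457, 760, 708, 1278 and 1597 in replicate 2, in the order given. In replicate 1 the first 3 ranked 497, 2859 and 2995, and the other 2 had no summit within 100 bp. Only the strongest was therefore among the 1910 strongest of both replicates, and in replicate 2 alone a further region, 7635 bp downstream of the first start, ranked 1568 (pooled rank 2278).

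Of the 5 lin-42 summits only that at the third start had a WGATAR within 50 bp, a TGATAA with its centre 13.5 bp away. The strongest had GAGACGCAG 35 bp from the summit. The summit before the fourth start had neither, and its 101 bp were 72.3% G or C, more than 99.9% of nuclear IDR summits. The summit in the 5′ UTR had 69.3% G or C and GAGACGCAG 17 bp away. The sequences of the first 3 summits, chrII:1246951-1247051, chrII:1240593-1240693 and chrII:1238032-1238132 (plus strand), show these different make-ups, with capitals as before.
lin-42 strongest: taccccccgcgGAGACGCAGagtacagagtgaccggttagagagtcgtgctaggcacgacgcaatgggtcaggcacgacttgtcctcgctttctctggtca
lin-42 before start 3: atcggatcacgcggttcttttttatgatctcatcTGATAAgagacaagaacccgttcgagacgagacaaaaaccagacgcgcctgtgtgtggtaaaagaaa
lin-42 before start 4: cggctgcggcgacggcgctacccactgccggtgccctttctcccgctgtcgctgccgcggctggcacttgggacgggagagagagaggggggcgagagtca

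Of the kinase genes, nekl-3 had 2 IDR summits. The gene (WBGene00008956, X, 12389594 to 12391480, minus strand) has 2 transcript starts, 6 bp apart. The summit at 12391994 to 12392333 lay in its promoter window, 684 bp upstream, with a signal of 33.8 (percentile 29.01) and ranks of 1054 and 1704 in replicates 1 and 2. It had 3 GATA sites, one of them AGATAG and the others TGATAA, the nearest 8.5 bp from the summit, the most of the 14. The stronger summit, at 12393832 to 12394171 with a signal of 58.6 (percentile 76.0) and ranks of 717 and 603, lay 2522 bp upstream of nekl-3 but 256 bp upstream of F17E5.2, and was the one summit of the 14 whose nearest protein-coding start was that of another gene. It had no WGATAR within 50 bp, and GAGACGCAG 36 bp from the summit. The sequences, chrX:12392114-12392214 and chrX:12393952-12394052 (plus strand), are set side by side for this contrast, with capitals as before.
nekl-3 promoter: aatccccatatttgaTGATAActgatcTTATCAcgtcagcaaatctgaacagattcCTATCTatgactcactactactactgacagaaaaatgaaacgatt
nekl-3 towards F17E5.2: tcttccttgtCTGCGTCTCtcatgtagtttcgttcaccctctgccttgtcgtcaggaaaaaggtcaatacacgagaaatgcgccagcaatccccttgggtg

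The other kinase gene, nekl-2 (WBGene00022631, 6663161 to 6665160, plus strand), had no IDR summit in its window of 12.0 kb, and the nearest to its start was 31456 bp away. It had 1 pooled summit, with a signal of 5.87 and rank 22077, in a coding exon of ZC581.7. Replicate 1 had no region in the window, and replicate 2 had 2, the stronger with a signal of 10 and rank 5204.

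By place, 7 of the 14 summits (50%) lay in an intron of the named gene, and 27.5% of all nuclear IDR summits lay in an intron of a protein-coding gene. Outside protein-coding genes lay 6 of the 14 (42.9%), against 64.3% of all, and in a 5′ UTR 1 of the 14 (7.14%), against 3.56% of all. The windows were drawn around gene bodies, which bears on these shares, and the differences were not tested. Promoter windows of the named genes held 5 of the 14. With other genes' windows counted, the share was 42.9%, and it was 43.8% for all nuclear IDR summits. On the X chromosome lay 4 of the 14 (28.6%) and 23.5% of all.

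A WGATAR within 50 bp was found at 6 of the 14 summits, 42.9%, and at 40.0% of all nuclear IDR summits. Among pooled summits more than 500 bp from any IDR summit the share was 19.7% of 76 in the molting gene windows and 21.1% of 27789 in all. The sites lay between 0.5 and 13.5 bp from the 6 summits, with a median of 10 bp (nearest site each). AGATAG was present at 3 of the 14 and at 9.83% of nuclear IDR summits. AGATAA was at 2 of the 14 and at 23.3% in all, and TGATAA at 2 of the 14 and at 9.19% in all. The windows as a whole were not rich in sites, with 2.47 WGATAR per kb against 2.38 in the nuclear genome. Of the 374 WGATAR in them, 14 lay inside IDR regions, which is 3.74%. Over the nuclear genome 0.941% of WGATAR lay inside IDR regions. The share of window bases inside IDR regions was not computed, so these values do not tell whether sites are enriched there. The windows also held more IDR summits per kb than the nuclear genome (0.0924 against 0.0188). The 3 genes without an IDR summit had 35 (grh-1), 42 (bed-3) and 31 (nekl-2) WGATAR in their windows, and nhr-23 had 48.

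**Figure D4:**
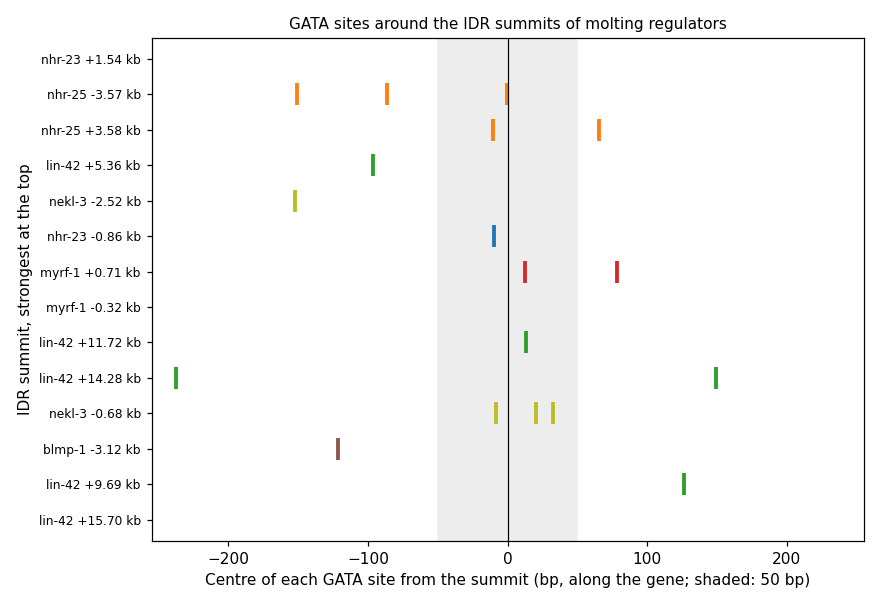
Centre of each WGATAR from the summit (x axis, bp along the gene) for the 14 IDR summits, from the strongest at the top to the weakest, coloured by gene; the shaded band is 50 bp on each side. The 6 summits with a site in the band have one within 13.5 bp, and the rows of the intronic nhr-23, the promoter myrf-1 and the 5′ UTR lin-42 summits have none within 250 bp.

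The 14 summits were richer in G and C than the list they came from. The median GC content of the 101 bp was 46.5%, against 42.6% over all nuclear IDR summits. The 6 summits with a WGATAR had between 34.6% and 48.5% G or C, and the 8 without had between 36.6% and 72.3%, so the groups overlap. The medians were 44.5% and 56.4%, and in the whole list 38.6% and 45.5%. When the nuclear IDR summits were divided by GC content into 4 bins, WGATAR was present in 60.5%, 50.5%, 31.1% and 14.4% of them, from the lowest bin to the highest. Of the 14, the lowest bin held 2, the third 6 and the highest 6. The share among the 1910 strongest of replicate 1 also moved with GC content, at 75.2%, 72.0%, 65.4% and 63.3% over the bins, while that of replicate 2 was 82.4%, 83.1%, 82.4% and 81.3%. The part of base composition in the replicate ranks of lin-42 and myrf-1 was not tested.

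**Figure D5:**
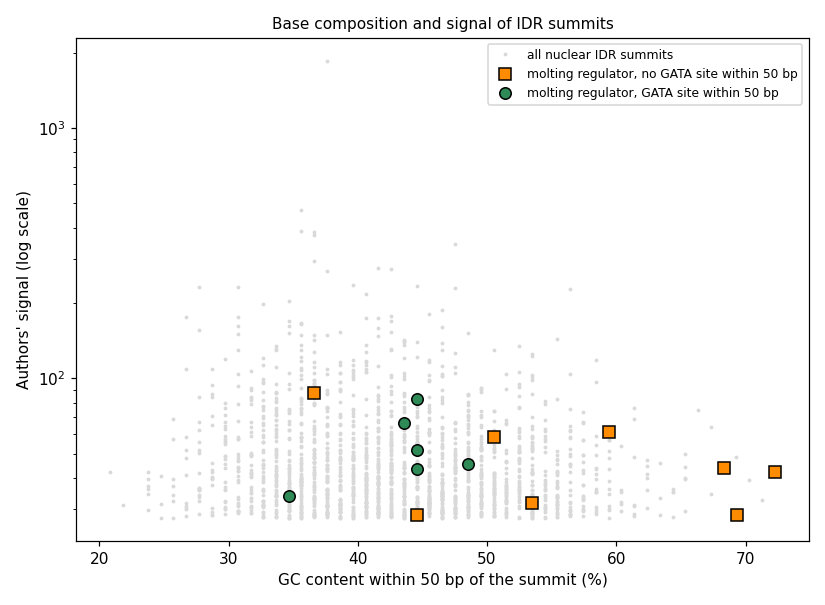
GC content of the 101 bp around the summit (x axis, %) against the authors' signal (y axis, log scale) for all nuclear IDR summits (grey), with the 14 at molting regulators as green circles where a GATA site lies within 50 bp and orange squares where none does. All 6 circles lie at or below 48.5% G or C, and 3 squares lie above 68%.

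The word GAGACGCAG, chosen after the printed sequences were read, was found on either strand within 50 bp of 5 of the 14 summits (2 at lin-42, 2 at myrf-1 and 1 at nekl-3), which is 35.7%. It was present at 6.05% of the other nuclear IDR summits and at 1.23% of the remaining pooled summits. Of the 8 summits without a WGATAR, 4 had the word, and 1 of the 6 with a WGATAR had it. Over all nuclear IDR summits, 87 of the 1130 without a WGATAR and 31 of the 752 with one had the word. None of the 5 copies at the molting gene summits overlapped a WGATAR. In the molting gene windows 7 of 18 copies lay inside IDR regions, 38.9%. Over the nuclear genome it was 238 of 4419 copies, 5.39%, against 0.941% of WGATAR sites and 0.592% of all bases. None of these comparisons was matched for base composition, and the word is richer in G and C than WGATAR. The remaining pooled summits had a median GC content of 35.6%, against 42.6% at all nuclear IDR summits. Because the word was read from the molting gene summits themselves, its shares of 35.7% and 38.9% were partly set by that choice and lend it no support. The same holds for its split between the summits of the 14 with and without a WGATAR. The share of bases inside IDR regions was not computed for the molting gene windows alone. The word was at 4.20% of the strongest regions of replicate 1 and 6.21% of those of replicate 2. A match is a description of the letters and shows no binding of any factor.

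Further molting genes were described from 2 lists. Of 11 other regulators that matched the annotation (let-7, the 12th listed, was not matched by its symbol), 6 had an IDR summit in the window and 3 in a promoter window. The promoter summits were at kin-20, the worm casein kinase related to Doubletime (signal 49.3), at myrf-2, the paralogue of myrf-1 (43.1), and at lin-28, a heterochronic RNA-binding protein gene (35.0). The window of kin-20 had a stronger summit (63.3) in an intron, and that of myrf-2 one of 70.5. Outside promoters, nhr-91 had a summit of 89.8 in its intron with a WGATAR. The summits in the windows of nhr-85 (29.1) and mlt-2 (32.7) lay nearer to starts of hpo-2 and col-61.

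Of 21 molting effector genes, 8 had an IDR summit in the window and 4 in a promoter window. The promoter summits were at ptr-18, a Patched-related gene (signal 79.6), noah-1, a zona pellucida domain matrix protein gene (74.4), dab-1, an endocytic adaptor gene (47.1), and mlt-7, a peroxidase gene (30.5). Of these, mlt-7 was matched in replicate 1 at rank 958 and had no summit within 100 bp in replicate 2. The highest signal in the effector windows, 102.7, was a second summit in the window of ptr-18, in the 5′ UTR of cyd-1 and nearer to the start of that gene. The 4 genes with summits outside their promoters only were fbn-1 (88.8, nearer to upp-1), mlt-10 (48.7, with a WGATAR), noah-2 (45.2, nearer to F52B11.2) and lrp-1 (30.6). The mlt-10 summit lay in an intron of T27A1.3. The lrp-1 summit ranked only 27113 in replicate 1 and 1414 in replicate 2. Both lists were written with some of these peaks already known, and the shares for all genes are the 18.4% and 4.98% above.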

How the data were processed

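ELT-1 ChIP-seq of 2 biological replicates was deposited as peak lists on ce11 and ce10; only the ce11 lists were used. Per the submitters' file lists, the calls used a control library, not analysed here; a relaxed list exists for either replicate and for the pooled data, and the IDR list derives from them. Which aligner, caller and IDR cutoff were used is not stated in the labels or file lists. The deposited columns used were the authors' signal, the −log10 q value, and the summit as an offset from the region start. All 1910 IDR regions share the highest −log10 q of the pooled list and were its strongest regions, so signal ranks them. Per the labels, the fragment size range was 150 to 350 bp.

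Summits were placed on the WBcel235 genome (RefSeq) with Ensembl release 115 annotation; 99.9% of annotated start codons read ATG there. Replicate summits were matched within 100 bp. The code (Python 3.11.15) was checked on made-up positions and sequences. No tests were run, because the genes and lists were chosen with earlier results of these data known. Counts at the main settings stand beside the same share over all genes or peaks. The named genes are the 9 regulators, in the 2 further lists each gene with a promoter summit and otherwise the 4 per list with the highest IDR signal, neighbours that hold a described summit, and genes most alike in 3 window values. Alternatives were other windows, promoter lengths, match and motif distances, the stronger 955 IDR peaks, and each replicate alone.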

Additional observations from a re-analysis of the deposited data

How the results depend on the processing

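No paired analysis was possible because there is 1 group only. The count of genes with an IDR summit, 6 of 9, was 5 with windows of 2 kb (without blmp-1), 7 with windows of 10 kb (with grh-1) and 5 in the stronger 955 peaks, and 6 from each replicate alone. Shares over all genes were not computed for the other windows, the other promoters or the stronger peaks. The counts at those settings can therefore not be set against all genes. The 14 summits were 11 and 18 with the shorter and longer windows, 10 in the stronger peaks, and between 11 and 15 with 1 replicate left out. The count of genes with a summit in a promoter window was less stable. It was 4, and 2 with promoters of 500 bp upstream to 100 bp downstream (nhr-23 and myrf-1), 4 with the longer promoters, and 3 in the stronger peaks. Leaving out replicate 1 gave 4 and leaving out replicate 2 gave 2 (nhr-23 and nekl-3), so the promoter summits of lin-42 and myrf-1 were among the strongest regions of replicate 2 and not of replicate 1. The 6 summits with a WGATAR were 6 within 25 bp and 7 within 100 bp, 5 in the stronger peaks, and 4 to 5 with 1 replicate left out. The 8 summits among the strongest of both replicates were 6 with a match within 50 bp, 8 within 200 bp and 12 in the whole lists. Depth is unknown, so a gene without an IDR summit is not shown to lack binding.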

Other observations

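Between 5 and 10 kb from the gene bodies lay 4 further IDR summits. At nhr-25 there were 2, 5943 bp and 6872 bp upstream of the first start, with signals of 28.1 and 29.3, and nhr-25 was the gene with the nearest start for both. Past the end of nhr-23 a summit with a signal of 64.4 lay 46 bp upstream of C01H6.8, and the fourth was that near grh-1.

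Windows most like those of the 3 leading genes were sought among 17146 protein-coding genes with a region in both replicates, by the Euclidean distance over log2 of the highest signal in replicate 1, the same in replicate 2, and log2 of 1 plus the number of IDR summits. The nearest to nhr-23 was C01H6.4, which shares its summits, and then mig-38 (distance 0.101, with 2 IDR summits). The nearest to nhr-25 were nhr-20 (0.0631) and ZK488.6 (0.128), and to lin-42 hlh-30 (0.0612) and nhr-137 (0.188), both with 5 IDR summits. With values from 2 replicates only, such likeness is a description.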
